A study of Arabidopsis thaliana with 24 samples.

Results

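The SYN genes of Arabidopsis thaliana encode the α-kleisins of cohesin, and 4 loci of the 32548 in the expression tables make up the family: SYN1 (AT5G05490), SYN2 (AT5G40840), SYN3 (AT3G59550) and SYN4 (AT5G16270). They were taken by locus identifier, and the family was chosen because SYN1 was much higher in ino80 seedlings, so the ino80 values of the 4 genes are given as a description without a test. RNA was sequenced from whole 11-day-old seedlings raised on plates in long days, with 16 h of light and 8 h of darkness. The 9 mutant groups included ino80, named for a chromatin remodelling ATPase. Mutations in JmjC-domain genes were carried by jmj24, jmj24/26/28 and atx4/5;jmj24. The atx1/2, atx4/5, atx1/2/4/5 and atx2/3/4/5 groups carried mutations in H3K4 methyltransferase genes of the COMPASS type. The last group was WDR5A_RNAi, directed at a core COMPASS subunit. Each group had 2 libraries and was compared with 2 wild-type Col-0 libraries of its own table, which gives 24 libraries in 3 tables. The labels name genotypes without alleles or transgene promoters.

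Cohesin is a ring that holds sister chromatids together. The SMC1 and SMC3 proteins form its arms, the kleisin closes it, SCC3 binds the kleisin, and separase opens the ring by cutting the kleisin. SYN1 is the REC8-type kleisin of meiosis, needed for chromosome cohesion and pairing in meiocytes. SYN2, SYN3 and SYN4 are RAD21-type kleisins: SYN2 is linked to DNA repair, SYN3 is found in the nucleolus and is needed for gametogenesis, and SYN4 acts in mitotic cells.

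SYN1 lies on chromosome 5 at 1624206 to 1629269 on the plus strand (TAIR10.1, the RefSeq release that keeps the TAIR10 nuclear sequence), with 2 annotated transcripts. The first starts at 1624206, has 21 exons and encodes 627 residues. The second starts inside the first intron of the first, at 1624563, has 20 exons and encodes 617 residues. SYN4, the most abundant member, lies on chromosome 5 at 5316197 to 5322700 on the plus strand, with 16 exons and a product of 1031 residues. SYN3 lies on chromosome 3 at 21997052 to 22000737 on the plus strand, with 12 exons and 693 residues. SYN2 lies on chromosome 5 at 16359331 to 16363878 on the minus strand, with 6 annotated transcripts, the longest product having 810 residues.

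The DNA just before the second SYN1 transcript (chr5:1624325-1624562, plus strand) and before SYN4 (chr5:5315947-5316196, plus strand) is shown because these members had the widest and the narrowest range among libraries. Capitals mark matches to the motifs searched on both strands. They were 4 E2F-type sequences (TTTCCCGC, TTTGGCGC, TTTCGCGC and TTTGCCGC) and AACGG, the core of the mitosis-specific element bound by MYB3R proteins. In SYN1 the first 48 bases are coding sequence of the first transcript and the rest is its first intron.
SYN1: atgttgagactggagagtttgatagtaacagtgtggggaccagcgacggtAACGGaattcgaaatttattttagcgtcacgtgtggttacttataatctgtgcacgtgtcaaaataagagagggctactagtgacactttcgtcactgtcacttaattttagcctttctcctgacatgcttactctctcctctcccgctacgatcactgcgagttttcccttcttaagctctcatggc
SYN4: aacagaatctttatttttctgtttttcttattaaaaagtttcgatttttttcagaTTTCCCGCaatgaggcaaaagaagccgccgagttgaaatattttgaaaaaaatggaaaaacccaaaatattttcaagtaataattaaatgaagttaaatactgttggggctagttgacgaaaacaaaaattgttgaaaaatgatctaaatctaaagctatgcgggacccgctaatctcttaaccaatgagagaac
The SYN1 window of 238 bases held 1 AACGG, at -188 to -184 from the transcript start, and no E2F-type sequence. Of 27443 windows of that length before annotated genes, 19.9% held AACGG and 1.36% held an E2F-type sequence. The SYN4 window of 250 bases held 1 TTTCCCGC, at -195 to -188, which was shared as an E2F-type match by 1.41% of windows. The windows before SYN2 and SYN3 held neither motif. These matches describe letters and show no binding.

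Values are the authors' normalised read counts, with libraries of a table brought to 1 size. Read totals were not available, so depth was estimated from the values. The libraries of the ino80 table held an estimated 18.8 to 19.0 M reads. The estimates were 24.1 to 29.0 M in the table with jmj24 and atx4/5;jmj24, and 21.6 to 33.5 M in the table with the other 6 mutants. A single read was taken to be worth 0.834 to 1.21 normalised counts, the median of the low values of a library. Depth was the column total divided by it. Among the targeted genes, INO80 averaged 875 in ino80 and 1749 in Col-0, but WDR5A averaged 918 in the libraries labelled WDR5A_RNAi and 100.1 in Col-0, and ATX3 averaged 690.2 in the libraries labelled atx2/3/4/5 and 386 in Col-0. The libraries labelled WDR5A_RNAi and atx2/3/4/5 thus went against a loss of that transcript, and both groups are named by their labels alone. ATX4 was lower in the libraries labelled atx2/3/4/5, with log2 fold changes of -3.55 to -3.49 when a library was left out. Of the 10 targeted genes, 2 were called higher and 2 lower in atx2/3/4/5, beside 38.0% of all genes called. Nothing in the labels says that the 2 libraries of a group came from separate cultures, and p-values then measure only the spread between these libraries. In whole seedlings, fewer cells of a type and less RNA per cell cannot be told apart.

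SYN1, the meiotic kleisin, had 126 and 153 normalised counts in the 2 ino80 libraries, against 4.17 and 3.07 in the 2 Col-0 libraries. Both ino80 libraries were far above both Col-0 libraries. The means were 139 ± 19.1 in ino80 and 3.62 ± 0.772 in Col-0 (SD, n = 2 each), a ratio of 38.5 and a log2 fold change of 4.93 ± 0.29 (SE) on the log2(value + 1) scale. The Col-0 level rests on about 3 to 4 reads per library, so the ratio is known only roughly. With a pseudocount of 5 the log2 fold change was 4.06. In this comparison 22.4% of all genes tested were called by limma at a Benjamini-Hochberg adjusted p under 0.05, and nothing is read from that share for members chosen on it.

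The 3 RAD21-type kleisins did not share a change of that size. SYN2 had 120.4 and 113 in ino80 against 86.6 and 85.9 in Col-0, a log2 fold change of 0.43 ± 0.15 without overlap. SYN3 had 106 and 136 in ino80 against 126 and 111 in Col-0, with the groups overlapping, a log2 fold change of 0.02. SYN4 had 1326 and 1357 in ino80 against 1482 and 1434 in Col-0, a log2 fold change of -0.12 ± 0.06. SYN4 was the member whose ino80 libraries both lay below both Col-0 libraries in the deposited scaling. With column totals set equal, the log2 fold change in ino80 was -0.03 for SYN4 and 0.52 for SYN2.

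Per kilobase of exon, the order of the 4 genes differed between the genotypes. In ino80, SYN4 was at 353 ± 5.85 normalised counts per kb, SYN1 at 60.8 ± 8.34, SYN3 at 47.8 ± 8.59 and SYN2 at 34.8 ± 1.56. The 2 SYN1 libraries, at 54.9 and 66.7, were both above the 2 SYN3 libraries, at 41.7 and 53.9. In Col-0 of the same table, SYN4 was at 384 ± 8.98, SYN3 at 46.9 ± 4.10, SYN2 at 25.7 ± 0.151 and SYN1 at 1.58 ± 0.336. SYN1 was thus second in ino80 and last in Col-0. In Col-0 of the other tables SYN2 and SYN3 overlapped, with SYN2 at 38.7 ± 2.40 and SYN3 at 37.5 ± 3.81 in one table, and SYN2 at 46.3 ± 6.74 and SYN3 at 45.5 ± 2.17 in the other.

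As a share of the summed kleisin level per kb, SYN1 made up 12.2% ± 1.16 in ino80 and 0.343% ± 0.0632 in Col-0. SYN4 made up 71.2% ± 1.86 in ino80 and 83.8% ± 0.521 in Col-0 (SD, n = 2 each). The summed level was 497 ± 21.2 per kb in ino80 and 458.5 ± 13.6 in Col-0.

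**Figure D1:**
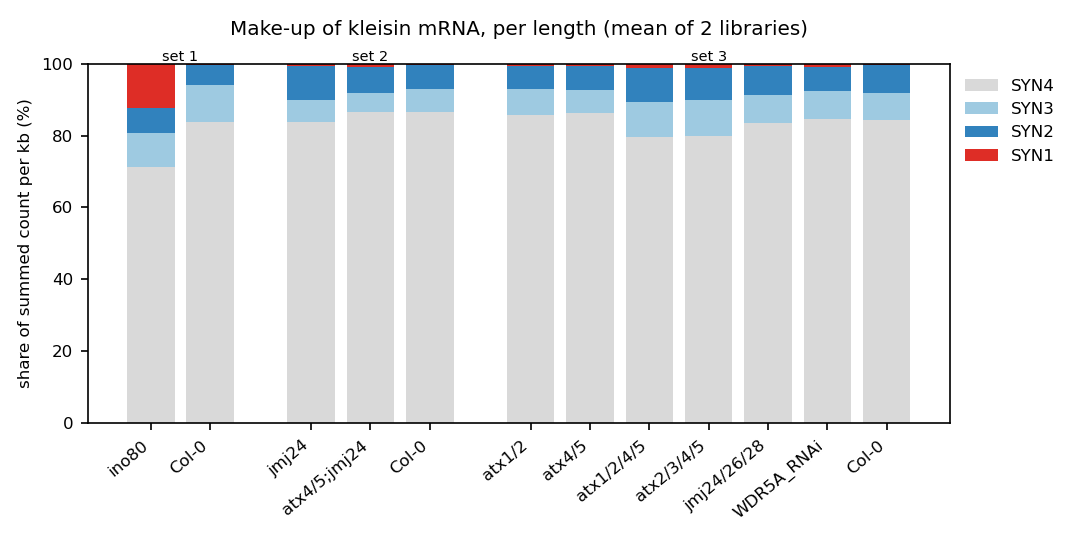
Share of each SYN gene in the summed normalised count per kb of exon, as the mean of 2 libraries per genotype, with mutants to the left of the Col-0 of their own table. SYN1 takes 12.2% in ino80 and 0.343% in its Col-0, and SYN4 is the largest share in every group.

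In the other 8 mutants, 3 of 32 comparisons of a SYN gene with Col-0 passed the test. The share of all genes called in these comparisons ran from 0.282% in atx1/2 to 38.0% in atx2/3/4/5. An unadjusted p under 0.05 was found in 8 of the 32, for which no share of all genes was counted. All 3 that passed were increases in the quadruple atx mutants. SYN1 had 12.7 and 23.1 normalised counts in atx1/2/4/5 against 5.11 and 5.86 in Col-0. The means were 17.9 ± 7.37 in atx1/2/4/5 and 5.49 ± 0.528 in Col-0, a ratio of 3.27 and a log2 fold change of 1.49 ± 0.45 (limma adjusted p = 0.0178). In this comparison 33.3% of genes were called, 4025 higher and 4248 lower, and SYN1 was the called member of 4. The call was lost without Col-0 replicate 1 (limma adjusted p = 0.0799), Col-0 replicate 2 (adjusted p = 0.0531) or atx1/2/4/5 replicate 2 (adjusted p = 0.173).

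In the libraries labelled atx2/3/4/5, SYN1 had 18.7 and 18.6 against the same Col-0 libraries at 5.11 and 5.86, a ratio of 3.40 and a log2 fold change of 1.60 ± 0.45 (limma adjusted p = 0.0103). SYN3 had 159 and 175 in atx2/3/4/5 against 111 and 119 in Col-0, a log2 fold change of 0.53 ± 0.16 (limma adjusted p = 0.0166). These 2 of 4 members stood beside 38.0% of genes called, 4433 higher and 5000 lower. Without Col-0 replicate 1 neither passed, with limma adjusted p = 0.0548 for SYN1 and 0.0862 for SYN3, and without atx2/3/4/5 replicate 2 SYN3 had an adjusted p = 0.110. Both quadruple mutants were compared with the same Col-0 libraries. SYN3 in atx1/2/4/5 had 137 and 159 against 111 and 119 in Col-0, also without overlap, a log2 fold change of 0.36 ± 0.16 that did not pass (limma adjusted p = 0.107).

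SYN2 and SYN4 were not called in the quadruple mutants. SYN2 had 183 and 193 in atx1/2/4/5, against 139 and 171 in Col-0 (log2 fold change 0.28 ± 0.15, limma adjusted p = 0.154). It had 189 and 197 in atx2/3/4/5, a log2 fold change of 0.32 ± 0.15 (limma adjusted p = 0.0966), which passed without Col-0 replicate 2 (adjusted p = 0.0491). SYN2 was above both Col-0 libraries in all 4 of these mutant libraries, a pattern whose share over all genes was not counted. SYN4 had 1839 and 1809 in atx1/2/4/5 and 1965 and 1979 in atx2/3/4/5, against 1943 and 1924 in Col-0, with log2 fold changes of -0.08 (limma adjusted p = 0.282) and 0.03 (adjusted p = 0.738). When column totals were set equal, which moved the median of all genes up by 0.13 in atx1/2/4/5 and 0.17 in atx2/3/4/5, SYN2 and SYN3 were also called higher in atx1/2/4/5, and SYN2 and SYN4 in atx2/3/4/5. Under that scaling 6506 of 9398 called genes were higher in atx1/2/4/5, 7979 of 11245 in atx2/3/4/5 and 4114 of 6030 in ino80, against 2451 of 5135 in ino80 with the deposited scaling.

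SYN1 was not called in the double atx mutants. It had 7.29 and 7.75 in atx1/2 and 9.20 and 6.12 in atx4/5, log2 fold changes of 0.40 in each (limma adjusted p = 0.964 and 0.756). No member was called by limma in atx1/2, where 0.282% of genes were called, or in atx4/5, where 3.24% were. In atx4/5 the smallest unadjusted p was that of SYN4, with 2073 and 2247 against 1943 and 1924 in Col-0 (log2 fold change 0.16 ± 0.06, adjusted p = 0.163). It was the 1 member with an unadjusted p under 0.05 in atx4/5, and in atx1/2 the count was 0. SYN2 had 129 and 136 in atx1/2 and 158 and 141 in atx4/5, and SYN3 had 102 and 121 in atx1/2 and 104 and 109.8 in atx4/5, all overlapping or below Col-0.

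Direct comparisons between the atx mutants were added after the values were seen. SYN1 was higher in atx2/3/4/5 than in atx4/5, by a log2 fold change of 1.20 ± 0.45 (limma adjusted p = 0.0467), where 36.5% of genes were called. That call was lost with any 1 of the 4 libraries dropped (adjusted p = 0.0642 to 0.232), and under 4 of the other settings. Its differences of atx1/2/4/5 from atx1/2, 1.096 ± 0.45, and from atx4/5, 1.09 ± 0.45, did not pass (limma adjusted p = 0.0777 and 0.0740), where 31.0% and 33.4% of genes were called. Between the quadruple mutants SYN1 differed by -0.11, atx1/2/4/5 over atx2/3/4/5 (limma adjusted p = 0.921). There 15.6% of genes and none of the 4 members were called, with 0 at an unadjusted p under 0.05.

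SYN1 was not called in the remaining genotypes. SYN1 had 11.1 and 3.30 in jmj24 against 6.36 and 4.04 in Col-0, so the jmj24 libraries lay on both sides of Col-0 (log2 fold change 0.24 ± 0.60, limma adjusted p = 0.897). It had 14.04 and 9.18 in atx4/5;jmj24, both above Col-0, with a log2 fold change of 1.02 ± 0.60 that did not pass (limma adjusted p = 0.368). It had 8.19 and 17.9 in the libraries labelled WDR5A_RNAi (log2 fold change 1.03 ± 0.45, limma adjusted p = 0.166) and 7.38 and 8.91 in jmj24/26/28 (0.49, adjusted p = 0.666), against 5.11 and 5.86 in Col-0. All 12 mutant libraries of that table were above both of its Col-0 libraries, and 3 of 4 in the jmj24 table, at levels of a few reads.

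SYN2 had 193 and 178 in jmj24 against 135 and 124 in Col-0, a log2 fold change of 0.51 ± 0.17 that did not pass (limma adjusted p = 0.150), and 155 and 120.2 in atx4/5;jmj24. SYN3 had 76.2 and 77.3 in atx4/5;jmj24 and 102 and 74.8 in jmj24, against 88.2 and 102 in Col-0, and neither passed (limma adjusted p = 0.477 and 0.857). No member was called by limma in jmj24, atx4/5;jmj24, jmj24/26/28 or WDR5A_RNAi, where 2.82%, 7.71%, 3.85% and 9.56% of genes were called. Members with an unadjusted p under 0.05 numbered 1 in jmj24 (SYN2), 1 in WDR5A_RNAi (SYN1), and 0 in atx4/5;jmj24 and jmj24/26/28. None was called between atx4/5;jmj24 and jmj24, where 0.746% of genes were called and SYN2 was the 1 member with an unadjusted p under 0.05.

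SYN2, SYN3 and SYN4 were likewise not called in jmj24/26/28 and WDR5A_RNAi. SYN2 had 176 and 182 in jmj24/26/28 and 153 and 127 in WDR5A_RNAi, against 139 and 171 in Col-0. SYN3 had 116 and 144 in jmj24/26/28 and 120.3 and 122 in WDR5A_RNAi, against 111 and 119 in Col-0. SYN4, the mitotic kleisin, had 2099 and 2087 in jmj24/26/28 and 1964 and 2030.3 in WDR5A_RNAi, against 1943 and 1924 in Col-0. It had 1851 and 1819.7 in jmj24 and 1864 and 1873 in atx4/5;jmj24, against 2022 and 1856 in Col-0. Log2 fold changes of SYN4 in these 4 genotypes lay between -0.08 and 0.11.

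**Figure D2:**
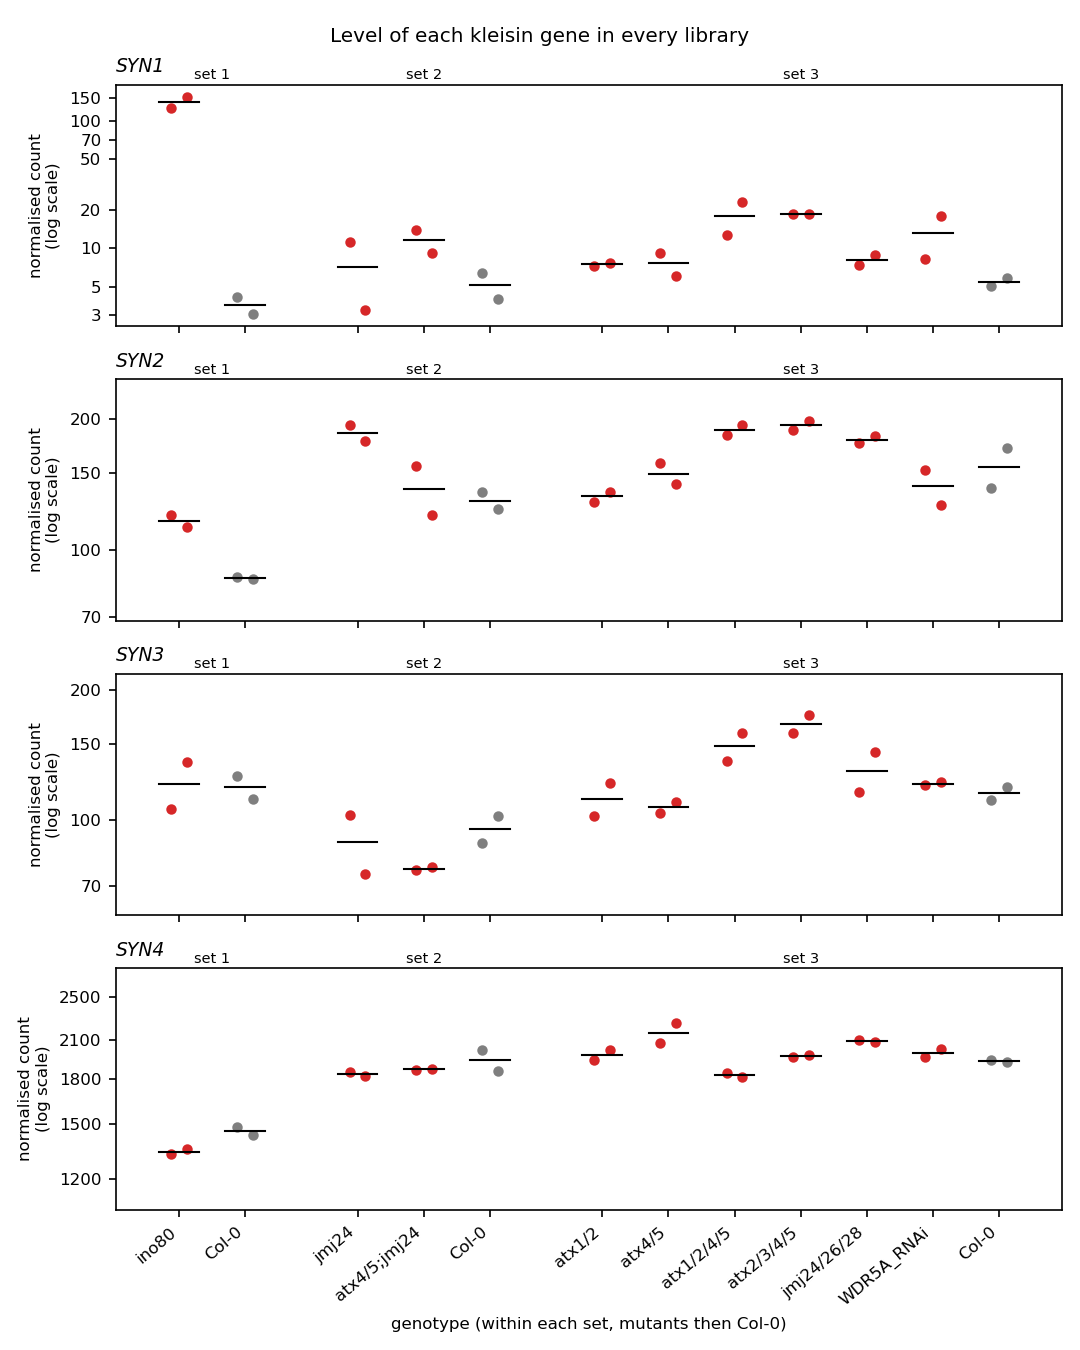
Normalised read counts (log axis) of the 4 SYN genes in each of the 24 libraries, grouped by table (sets 1 to 3), mutants in red and to the left of the grey Col-0 of their table, with a black line at the mean of 2. The ino80 points of SYN1 sit at 126 and 153, above its Col-0 points at 4.17 and 3.07, while SYN4 spans a narrow range in each table.

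**Figure D3:**
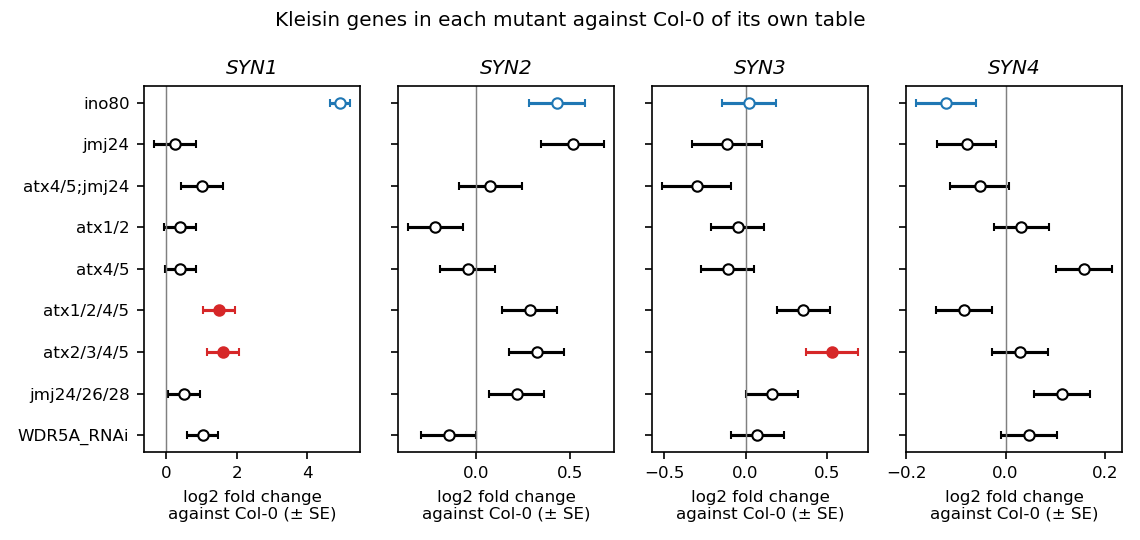
Log2 fold change over Col-0 with its SE for each SYN gene in 9 mutants, on x axes that differ between panels. Red filled points passed the adjusted test, open black points did not, and blue open points are ino80, which was not tested. The called points are SYN1 in both quadruple atx mutants and SYN3 in atx2/3/4/5.

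A single test for any difference among the genotypes of a table gave another view. In the table of 6 mutants, all 4 members passed the moderated F test of limma, with adjusted p = 0.0379 for SYN1, 0.0220 for SYN2, 0.0265 for SYN3 and 0.0316 for SYN4, where 51.1% of all genes passed. This count fell to 0 without atx1/2/4/5 replicate 2 or without atx2/3/4/5 replicate 2. In the jmj24 table, where 6.16% of genes passed, none of the 4 did, with 1 at an unadjusted p under 0.05 (SYN2, limma adjusted p = 0.159). Across libraries of a table, the highest SYN1 value was 49.8, 4.25 and 4.53 times the lowest in the ino80, jmj24 and 6-mutant tables. The same ratio for SYN4 was 1.12, 1.11 and 1.24.

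The partners and regulators of the kleisins were followed with a list of 19 cohesin genes, all measured. Counts of called list genes are given beside the share of all genes called in the same comparison, and no list was tested as a set. In ino80, 1 of the 19 was called higher and 1 lower, beside 22.4% of all genes called, with a median log2 fold change of -0.07 beside 0.00 over all genes. The higher one was SWI1, needed for meiotic cohesion, with 25.0 and 31.2 in ino80 against 10.4 and 9.21 in Col-0 (log2 fold change 1.42 ± 0.33, limma adjusted p = 0.0122). The lower one was PDS5C, a cohesin-associated protein, with 1107 and 1056 in ino80 against 1273 and 1261 in Col-0 (log2 fold change -0.23 ± 0.06, limma adjusted p = 0.0276). Neither passed without ino80 replicate 1 or ino80 replicate 2. The ring subunits SMC1 (-0.05, limma adjusted p = 0.645), SMC3 (-0.07, adjusted p = 0.551) and SCC3 (0.16 ± 0.06) were not called in ino80.

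In the atx mutants the cohesin gene with the smallest adjusted p was PDS5D, another cohesin-associated gene. It had 169 and 175 in atx1/2/4/5 against 424 and 448 in Col-0 (log2 fold change -1.33 ± 0.10, limma adjusted p = 1.06e-07), the 1 call among the 19, beside 33.3% of all genes. It had 249 and 235 in atx2/3/4/5 (log2 fold change -0.85 ± 0.10, limma adjusted p = 5.69e-06) and 274 and 296 in WDR5A_RNAi (-0.61 ± 0.10, adjusted p = 0.00135). PDS5D kept these 3 calls in every alternative run. In atx2/3/4/5, 2 of the 19 cohesin genes were higher and 2 lower, beside 38.0% of all genes called, with a median of 0.06. Separase, ESP, had 333 and 315 in atx2/3/4/5 against 188 and 223 in Col-0 (log2 fold change 0.66 ± 0.15, limma adjusted p = 0.00227). The shugoshin SGO1, which shields centromeric cohesin from separase, had 164 and 176 in atx2/3/4/5 against 288 and 295 in Col-0 (-0.77 ± 0.11, limma adjusted p = 3.23e-05). With column totals set equal, 12 of the 19 were called in atx2/3/4/5, beside 45.8% of all genes, and 5 in atx1/2/4/5, beside 38.2%. In jmj24, SMC1 was the 1 called gene, beside 2.82% of all genes, with 1221 and 1167 against 1460 and 1442 in Col-0 (-0.28 ± 0.06, limma adjusted p = 0.0344), which did not pass with any 1 of the 4 libraries dropped.

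Other meiotic genes were followed with a list of 27, all measured. In ino80, 6 were called higher and 0 lower by limma, 9 had an unadjusted p under 0.05, and the median log2 fold change was 0.27 beside 0.00 over all genes, with 21 of 27 positive. The count of 6 in 27 was close to the share of all genes called, 22.4%. ZIP4, which acts in class I crossover formation, had 62.6 and 52.5 in ino80 against 6.27 and 7.15 in Col-0 (log2 fold change 2.92 ± 0.30, limma adjusted p = 1.86e-04). MLH3, of the same crossover pathway, had 43.3 and 51.7 in ino80 against 19.8 and 18.4 in Col-0 (1.26 ± 0.26, limma adjusted p = 0.00675). The meiotic cyclin SDS had 50.1 and 45.8 in ino80 against 23.0 and 22.5 in Col-0 (1.04 ± 0.24, limma adjusted p = 0.0127). The other calls, named after their values were seen, were the crossover genes MSH4, MSH5 and HEI10, with log2 fold changes of 1.12, 0.87 and 0.87. SPO11-1, which makes the meiotic double-strand breaks, and the axis protein ASY1 were not called, at 0.16 (limma adjusted p = 0.779) and 0.24 (adjusted p = 0.727). The count of called meiotic genes was 0 without ino80 replicate 1 and 1 without ino80 replicate 2, where the genes called overall numbered 400 and 601, against 5135 with all libraries.

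In atx1/2/4/5, 5 meiotic genes were called higher and 4 lower, with a median of -0.15. The count of 9 in 27 was close to the share of all genes called, 33.3%. ZYP1a and ZYP1b, near-identical synaptonemal complex genes whose reads may be split between them, had log2 fold changes of -2.47 ± 0.41 and -1.88 ± 0.38 (limma adjusted p = 2.21e-04 and 0.00134). MSH5 had 21.5 and 28.6 in atx1/2/4/5 against 66.3 and 46.8 in Col-0 (-1.13 ± 0.28, limma adjusted p = 0.00550), a call lost without Col-0 replicate 1 or atx1/2/4/5 replicate 1. MSH5 was thus lower in atx1/2/4/5 and higher in ino80, each against its own Col-0. The 9 calls in atx1/2/4/5 became 3 without Col-0 replicate 1. In atx2/3/4/5, 2 were higher and 2 lower, beside 38.0% of all genes called, with a median of 0.22, and 2 were called in all without Col-0 replicate 1. In jmj24/26/28, SDS had 83.0 and 75.2 against 35.7 and 31.2 in Col-0 (1.22 ± 0.24, limma adjusted p = 0.00901), the 1 call of 27 beside 3.85% of all genes, a call that did not hold when Col-0 replicate 2 or any jmj24/26/28 library was dropped. In atx4/5;jmj24, ZIP4 was the 1 call of 27 beside 7.71% of all genes, with 28.1 and 30.5 against 9.91 and 10.1 in Col-0 (1.46 ± 0.39, limma adjusted p = 0.0424), lost when any single library of either group was left out. In atx4/5, 2 of 27, SDS and HEI10, were called higher, beside 3.24% of all genes, at 0.95 ± 0.24 and 1.12 ± 0.29 (limma adjusted p = 0.0439 and 0.0455), but SDS did not pass with any 1 of the 4 libraries dropped, and HEI10 passed with Col-0 replicate 2 dropped but not with any of the other libraries dropped.

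Of 15 measured genes of the DNA damage response, 5 were called higher and 0 lower by limma in ino80, beside 22.4% of all genes called, among them GMI1, a damage-induced gene with an SMC hinge domain. GMI1 had 723 and 693 in ino80 against 130.4 and 128 in Col-0 (log2 fold change 2.45 ± 0.09, limma adjusted p = 7.23e-07). In atx1/2/4/5, 7 of 15 were higher and 0 lower, beside 33.3% of all genes called, and in atx2/3/4/5, 12 were higher and 1 lower, beside 38.0%. In jmj24, where no SYN gene was called, 5 of 15 were also higher and 0 lower, beside 2.82% of all genes called. In atx4/5;jmj24 and jmj24/26/28 the count was 0. The total called was 1 in ino80 when ino80 replicate 1 or replicate 2 was dropped, 2 in atx1/2/4/5 without its replicate 2, and 6 in atx2/3/4/5 without its replicate 1. GMI1 went the other way in the double mutants, with 62.5 and 81.6 in atx1/2 and 50.6 and 71.0 in atx4/5, against 141 and 189 in Col-0 (log2 fold changes of -1.18 and -1.43, limma adjusted p = 0.0246 and 0.00108). The atx1/2 call was lost without any 1 of its 4 libraries. In atx2/3/4/5, PARP2, a poly(ADP-ribose) polymerase, had 527 and 496 against 284 and 237 in Col-0 (0.98 ± 0.11, limma adjusted p = 5.76e-06). Of 10 genes of other kleisins and their SMC partners, SMC6A was the 1 called in ino80, beside 22.4% of all genes, with 102 and 102 against 57.4 and 54.2 in Col-0 (0.86 ± 0.17, limma adjusted p = 0.00564), a call lost when ino80 replicate 1 or ino80 replicate 2 was dropped. Of 18 mitotic and replication genes, 2 were higher in ino80 (RNR1, of ribonucleotide reductase, and PCNA1, the replication clamp), beside 22.4% of all genes called, and 6 in atx2/3/4/5, beside 38.0%. The count of 6 became 2 without atx2/3/4/5 replicate 1. With ino80 replicate 1 or replicate 2 dropped, none of the 18 was called in ino80.

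**Figure D4:**
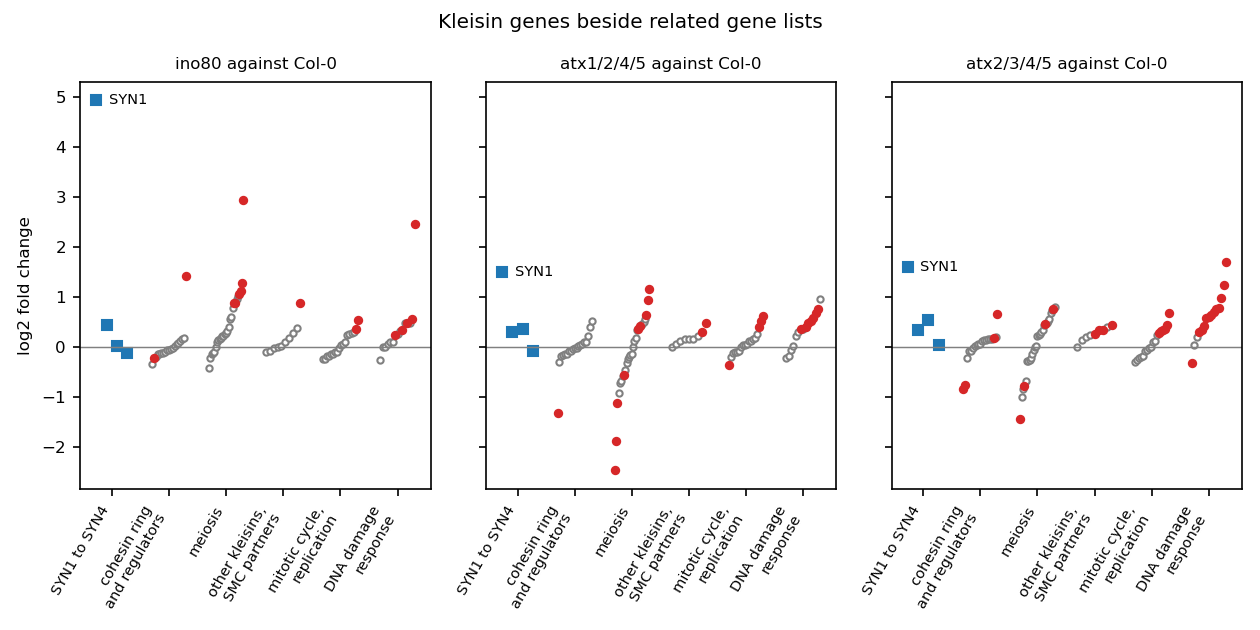
Log2 fold change over Col-0 of the SYN genes (blue squares, SYN1 to SYN4 from left to right) and of the cohesin, meiosis, other kleisin, mitotic and DNA damage lists (circles, red filled where called) in ino80, atx1/2/4/5 and atx2/3/4/5. In ino80 SYN1, chosen for its value there, is at 4.93 and ZIP4 at 2.92.

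Markers of other tissues also differed between mutants and Col-0, including in mutants where SYN1 was not called. The summed level of 7 floral organ genes was 394 to 422 in ino80 and 135 to 158 in Col-0, with 3 of 7 called higher (SEP3, PI and AG), beside 22.4% of all genes. These 3 calls became 0 without ino80 replicate 1, 1 without ino80 replicate 2 and 2 without Col-0 replicate 6. The summed level of 10 anther, tapetum and pollen genes was lower, 345 to 387 in ino80 against 639 to 692 in Col-0, with 4 measured. The lower sum was that of TPD1, a ligand of anther development, with 197 and 243 in ino80 against 544 and 573 in Col-0 (log2 fold change -1.35 ± 0.11, limma adjusted p = 6.00e-05). EMS1, its receptor, had 141 and 138 in ino80 against 87.8 and 105 in Col-0 (0.53 ± 0.15, limma adjusted p = 0.0319), a call lost without Col-0 replicate 5, ino80 replicate 1 or ino80 replicate 2. DYT1, MYB80, MS1 and A9, genes of the anther, were at 0 in all 4 libraries. Seed genes summed to 1055 in ino80 replicate 1 and 121 in ino80 replicate 2, against 23.9 and 9.27 in Col-0 replicates 5 and 6. SYN1 was at 126 in ino80 replicate 1 and 153 in ino80 replicate 2. Floral genes summed to 889 to 1014 in atx1/2/4/5 and 299 to 402 in atx2/3/4/5, against 139 to 161 in Col-0. In each of these mutants 3 of the 7 floral genes were called higher and 1 lower, beside 33.3% and 38.0% of all genes. Seed genes summed to 2309 to 5503 in atx1/2/4/5 and 2109 to 2370 in atx2/3/4/5, against 291 to 531 in Col-0. In jmj24/26/28, where SYN1 was not called, seed genes summed to 3170 to 4227 and floral genes to 275 to 282, against the same Col-0 libraries. The floral genes went both ways there, with 1 of 7 called higher and 1 lower, beside 3.85% of all genes. Their median log2 fold change was 0.00, and 3 to 4 of the 7 were at 1 or more, against 6 in Col-0. In jmj24, also without a SYN1 call, floral genes summed to 347 to 490, against 137 to 183 in Col-0. Seed genes there summed to 197 to 948, against 5.36 to 11.1 in Col-0. In atx1/2 the seed sum was below Col-0, at 31.7 to 245. The 6 vegetative markers, at 5.66e+05 to 5.81e+05 in ino80 and 6.73e+05 to 7.32e+05 in Col-0, were far above the other marker sums in every library. The part of these tissues in the SYN values was not tested.

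The neighbourhood of SYN1 was examined because its annotation meets that of another gene. The gene AT5G05480, on the minus strand at 1622172 to 1624270, overlaps the start of the first SYN1 transcript but ends before the second begins. It had 625 and 640 in ino80 against 346 and 338 in Col-0 (log2 fold change 0.88 ± 0.08, limma adjusted p = 9.25e-05). AT5G05480 was also called higher in jmj24 (0.43 ± 0.08, limma adjusted p = 0.0157) and atx4/5;jmj24 (0.47 ± 0.08, adjusted p = 0.00442). The same held in jmj24/26/28 (0.44 ± 0.10, limma adjusted p = 0.0251), and SYN1 was not called in any of these genotypes besides ino80, where it was not tested. Since the strand setting of the counting is not given in the sources used here, reads in the overlap cannot be told apart. In Col-0 AT5G05480 averaged 342 while SYN1 averaged 3.62. On the other side, MOP10 (AT5G05500), 340 bp away, had 593 and 611 in ino80 against 418 and 420.1 in Col-0 (0.52 ± 0.08, limma adjusted p = 0.00134), a call lost when ino80 replicate 1 or ino80 replicate 2 was dropped. MOP10 was also called higher in atx4/5;jmj24 (0.49 ± 0.12, limma adjusted p = 0.0243) and atx2/3/4/5 (0.64 ± 0.21, adjusted p = 0.0322). Of the 10 nearest measured genes, 2 were called higher and 0 lower in ino80, beside 22.4% of all genes called, with log2 fold changes from -0.77 to 0.88, while SYN1 was at 4.93. In atx1/2/4/5, 5 of the 10 were higher and 0 lower, beside 33.3% of all genes, and in atx2/3/4/5, 3 were higher and 1 lower, beside 38.0%.

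**Figure D5:**
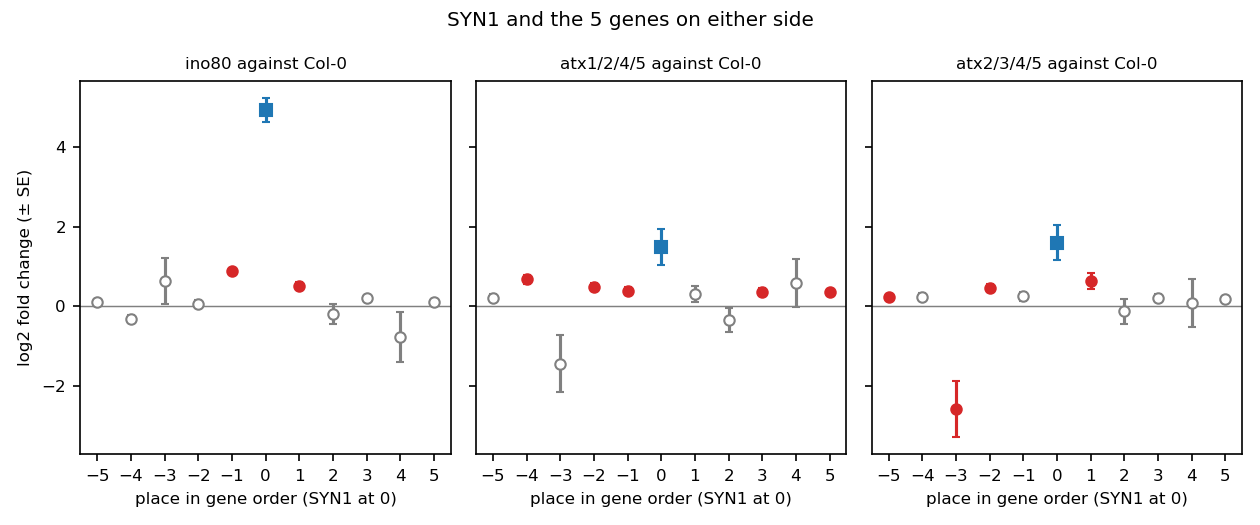
Log2 fold change over Col-0 with its SE for SYN1 (blue square at position 0) and 5 genes on each side in annotation order, red where called, in ino80, atx1/2/4/5 and atx2/3/4/5. In ino80 SYN1 stands at 4.93, while the 10 neighbours lie between -0.77 and 0.88.

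Likeness of pattern was described by Pearson's r over the 9 log2 fold changes against Col-0, among 5567 genes with a change of at least 1 in some mutant. The comparisons share Col-0 libraries and tables, so no p is given. The genes named were picked as those with the highest r of 5567 over only 9 values, so a high r alone says little. For SYN1, r mostly follows the ino80 value of 4.93 that the family was chosen on, since its other 8 values reach at most 1.60. The genes most like SYN1 were AT5G52950 (r = 0.960), RLP39 (0.948), AT1G56120 (0.945), AT5G36790 (0.943) and the defensin-like PDF2.1 (0.934). Over the 8 comparisons without ino80, added after the values were seen, their r lay between 0.328 (AT5G36790) and 0.896 (RLP39). AT5G36790 was at 6.54 in ino80 but -0.48 in atx1/2/4/5, and it has a near-identical copy whose reads may be mixed with its own. For SYN2 they were the seed storage gene CRU3 (0.964), AT2G05230 (0.935) and the oil-body gene OLEO1 (0.931). For SYN3 they were AT4G36580 (0.974), AT3G04200 (0.964) and TI1 (0.961), and for SYN4 AT1G67856 (0.937), AT3G05105 (0.914) and AT1G68845 (0.888). The 9 log2 fold changes of SYN4 lay between -0.12 and 0.16, and none of those tested was called. Among the members themselves, r was 0.43 between SYN1 and SYN2, 0.17 between SYN1 and SYN3, and -0.57 between SYN1 and SYN4. Without ino80 these were 0.17, 0.68 and -0.34.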

How the data were processed

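RNA sequencing of 24 seedling libraries was available as 3 tables of 32548 genes. Per the submitters' processing notes, HISAT2 2.2.0, edgeR and the TAIR10 build were used. The counter, its strand setting and any filter are not given in the sources used here, nor is which libraries were paired-end or single-end. The deposited values were treated as a signal: read counts that the authors rescaled so that libraries of a table have like size, which are not whole, so no count test was run. Tables were normalised separately and tested apart.

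The values were tested with limma 3.58.1 (R 4.3.3) on log2(value + 1), with intensity trend and robust variance, on genes at 1 or more in at least 2 libraries (22934, 23740 and 24843 genes). All groups of a table shared 1 estimate of spread. P-values were Benjamini-Hochberg adjusted over all genes of the table, and a gene was called at an adjusted p under 0.05. An exact permutation test of 2 against 2 libraries cannot go below p = 0.333. The procedure was tested on simulated data in which only genes above the Col-0 level of SYN1 were changed. That test does not cover changes in genes at a few reads. Levels per kb used the union of annotated exons.

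The 4 members and the gene lists were chosen with earlier results of these data known. The text names all members, up to 3 called genes per list and comparison with the smallest adjusted p, and the 5 genes (SYN1) or 3 genes (others) most like a member. Of the called neighbours it names AT5G05480 and MOP10, both beside SYN1. SYN2, SYN3 and SYN4 also had called neighbours, which are not named. Genes outside this rule were named after their values were seen. Promoter windows came from the RefSeq TAIR10.1 genome, and all identifiers matched its annotation. Alternatives covered pseudocounts, filters, scaling, variance settings, a replicate block and leaving out each library. The 5 comparisons between mutants were added after the values were seen.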

Additional observations from a re-analysis of the deposited data

Results flagged for a closer look

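Differences between mutants of 1 table passed a direct limma test in 5 cases, all added after the values were seen. Called members were 1 of 4 for atx1/2/4/5 against atx1/2, beside 31.0% of all genes. Against atx4/5 they were 2 of 4 for atx1/2/4/5, beside 33.4%, and 2 of 4 for atx2/3/4/5, beside 36.5%. None was called between the quadruple mutants, beside 15.6%, or between atx4/5;jmj24 and jmj24, beside 0.746%. SYN1 was higher in atx2/3/4/5 than in atx4/5 by a log2 fold change of 1.20 (adjusted p = 0.0467), a call lost with any 1 of the 4 libraries dropped (adjusted p = 0.0642 to 0.232). SYN3 was higher in atx2/3/4/5 than in atx4/5 by 0.64 (limma adjusted p = 0.00542), with an adjusted p of 0.0507 without atx2/3/4/5 replicate 2. It was higher in atx1/2/4/5 than in atx4/5 by 0.47 (limma adjusted p = 0.0364), lost without atx4/5 replicate 1, atx4/5 replicate 2 or atx1/2/4/5 replicate 2 (adjusted p = 0.144, 0.0839 and 0.226), under quantile normalisation (0.0602) and with only the 2 groups fitted (0.0656). SYN2 was higher in atx1/2/4/5 than in atx1/2 by 0.50 (limma adjusted p = 0.0158), lost without atx1/2 replicate 1 (adjusted p = 0.0870) or atx1/2/4/5 replicate 2 (adjusted p = 0.0913). SYN4 in atx1/2/4/5 differed from atx4/5 by -0.24 (limma adjusted p = 0.00332), which was -0.09 (adjusted p = 0.243) with column totals set equal and -0.18 (adjusted p = 0.0542) without atx4/5 replicate 2. The F test and these comparisons use the same libraries as the comparisons with Col-0.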

How the results depend on the processing

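Across 8 tested comparisons with Col-0, the member results kept their side of the threshold in 121 of 128 values with a library left out, and in 308 of 312 under other settings. The sign changed in 10 of the 116 left-out values and 1 of the 282 others of members that were not called, and in none of the called ones. The ino80 log2 fold change of SYN1 was 4.06 with a pseudocount of 5 and 4.76 to 5.10 with a library left out. The number of members called was 3 in atx1/2/4/5 and 4 in atx2/3/4/5 with column totals set equal, and ranged from 0 to 1 and from 0 to 3 with a library left out. For atx1/2/4/5 against atx1/2 it was 2 with a pseudocount of 5, without the variance trend or with the replicate block, 3 with column totals set equal, and 0 to 1 with a library left out. Against atx4/5 it was 1 for atx1/2/4/5 under quantile normalisation or with only the 2 groups compared, and 1 for atx2/3/4/5 with a pseudocount of 0.5, a filter of 10 or quantile normalisation, each 0 to 2 with a library left out. It was 3 for both with column totals set equal, for atx1/2/4/5 with a pseudocount of 5, and for atx2/3/4/5 without the trend. The F test count of 4 ranged from 0 to 4. In ino80 the number of genes called was 5135, but 243 without a filter, 581 without the trend and 400 to 3206 with a library left out. The causes were not tested. For each group of the 6-mutant table, the log2 value of replicate 2 was subtracted from that of replicate 1. These differences correlated between groups with r of 0.0193 to 0.367, over 0.1 in 12 of 21 pairs of groups. All r were positive, but the main fit did not pair the samples by number, and a shared replicate effect was not tested. The replicate block left the member counts against Col-0 at 1 in atx1/2/4/5 and 2 in atx2/3/4/5. With that block, all genes called went from 8273 to 9126 in atx1/2/4/5 and from 9433 to 10214 in atx2/3/4/5. With 2 libraries a group and SYN1 near a few reads in Col-0, depth limits its fold changes.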
